A study of Drosophila melanogaster with 2 samples.

Results

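The 10 genes described here carry the core of the Toll and Imd immune pathways of the fruit fly (Drosophila melanogaster): spz, Tl, Myd88, tub, pll, cact, dl, Dif, imd and Rel. They were taken by symbol from the Ensembl BDGP6 annotation, all 10 were found, and they stand among 13968 protein-coding genes. For each of them, every peak inside the gene or within 5 kb of it was read from the 8 deposited peak lists. The data are ChIP-seq of the protein encoded by CG5953, fused to enhanced green fluorescent protein in transgenic flies and pulled down with an antibody against that tag. There was 1 group, whole embryos collected at 0 to 24 h, with 2 biological replicates, and sonication gave fragments of 200 to 800 bp. Per the labels the chromatin came from whole organisms, so a peak is a sum over all their cells. Control libraries were not analysed here, and no comparison between conditions was possible. Depth is unknown, since peak lists carry no reads, and no counting error can be given.

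In the Toll pathway, the secreted ligand Spätzle (spz) is cut into its active form and binds the receptor Toll (Tl). The adaptors Myd88 and Tube (tub) then recruit the kinase Pelle (pll), the inhibitor Cactus (cact) is destroyed, and the NF-κB factors Dorsal (dl) and Dif enter the nucleus. In the early embryo this pathway sets the dorsoventral axis through Dorsal, and later it serves immunity together with the Imd pathway, in which the adaptor Imd (imd) leads to the NF-κB factor Relish (Rel).

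A peak is given by its signal, the authors' own value per peak, whose unit the files do not state. The conservative set (3015 peaks on the chromosome arms) and the optimal set (3304 peaks) come from both replicates together, and replicate 1 (1975 peaks) and replicate 2 (1660 peaks) each have a list of their own. In all 4, the peaks pass an irreproducible discovery rate (IDR) of 0.01, which is 2 on the −log10 scale. A gene was called bound where a summit lay within 500 bp of one of its annotated transcription start sites (TSS). For 1 replicate, the signal is that of its strongest ranked peak overlapping the place; a ranked list is the longer list before the threshold. Whether signals of the 2 libraries share a scale the files do not say. Levels of different genes were compared within 1 list at a time, and the replicates with each other at the same place.

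The DNA under the peaks that the results turn on is printed below from the RefSeq Release 6 genome, 5′ to 3′ on the strand of the pathway gene, within 100 bp of the summit and with UTR bases left out. The first 3 are promoter sequences that end at the base before the TSS, at the receptor, the adaptor Tube and the kinase, and they differ in how well the peak repeated between replicates. The next pair are the cact intron peaks found in both replicates' own lists, and the last pair are the strongest peaks at dl and Dif. Capitals mark matches, on either strand, to GAGAG (the GAGA factor type, read as CTCTC here), GGGNNNNCC (the NF-κB type) and GGTCACACT (the core promoter element Motif 1). In tub, GGGAATCCCC is a run of 3 overlapping NF-κB type matches.
Tl promoter, plus strand, chr3R:26798980-26799040: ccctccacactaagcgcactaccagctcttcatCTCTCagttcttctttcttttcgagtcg
tub promoter, plus strand, chr3R:4387621-4387741: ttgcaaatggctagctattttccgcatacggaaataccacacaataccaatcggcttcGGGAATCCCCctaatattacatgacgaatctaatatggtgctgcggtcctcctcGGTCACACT
pll promoter, minus strand, chr3R:27253183-27253362: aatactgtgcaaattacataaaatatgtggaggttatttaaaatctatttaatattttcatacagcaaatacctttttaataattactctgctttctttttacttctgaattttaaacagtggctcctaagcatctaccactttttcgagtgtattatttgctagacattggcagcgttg
cact intron, minus strand, chr2L:16317924-16318124: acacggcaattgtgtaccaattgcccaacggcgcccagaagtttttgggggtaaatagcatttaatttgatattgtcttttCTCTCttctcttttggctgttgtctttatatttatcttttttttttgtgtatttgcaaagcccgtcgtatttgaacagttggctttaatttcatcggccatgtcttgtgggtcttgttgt
cact intron, minus strand, chr2L:16318383-16318583: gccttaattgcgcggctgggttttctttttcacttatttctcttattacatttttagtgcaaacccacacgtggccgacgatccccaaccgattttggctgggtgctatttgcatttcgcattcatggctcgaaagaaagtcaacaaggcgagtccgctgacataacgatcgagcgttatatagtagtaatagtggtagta
dl upstream, minus strand, chr2L:17450878-17451078: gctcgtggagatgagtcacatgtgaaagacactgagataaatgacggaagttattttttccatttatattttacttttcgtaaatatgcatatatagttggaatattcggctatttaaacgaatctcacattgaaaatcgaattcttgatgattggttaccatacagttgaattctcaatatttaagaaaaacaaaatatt
Dif intron, minus strand, chr2L:17430094-17430294: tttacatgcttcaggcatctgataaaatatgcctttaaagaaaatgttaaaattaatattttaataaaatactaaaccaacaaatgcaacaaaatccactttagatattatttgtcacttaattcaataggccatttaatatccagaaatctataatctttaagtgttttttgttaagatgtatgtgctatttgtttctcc

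The letters of the NF-κB type site lay within 100 bp of 0 of the 14 conservative summits in or near these genes, against 10.6% of all 3015 conservative peaks. GAGAG lay at 2 of the 14 (14.3%, against 26.7% of all peaks), the cact intron peak printed above and a peak upstream of Myd88. The Zelda type CAGGTAG (0.896% of all peaks), the DREF type TATCGATA (2.29%) and Motif 1 (1.16%) lay at 0 of the 14. The tub promoter, whose peak is in replicate 2's list alone, holds both capitals shown. In the 121 bp before 19276 TSS of protein-coding genes, the NF-κB type letters were found in 6.23%, Motif 1 in 2.06% and GAGAG in 17.9%. Among replicate 2's own 1660 peaks, the first were found at 9.76% and the second at 1.08%. A match is not a measured site, and no match says only that these letters are not in the window. The GC content of the 14 windows had a median of 37.6%, against 37.8% for all conservative peaks.

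Conservative peaks lay at promoters of the kinase, 1 adaptor, the inhibitor and 1 NF-κB factor of the Toll pathway and of the Imd adaptor. The pll peak also lies at a TSS of TfIIA-L, and the imd peaks lie nearer to a TSS of Dp1. The conservative promoter peaks of cact and Dif were in neither replicate's own list. When a peak counted only for its nearest TSS, 4 genes were bound. In the conservative set 5 of the 10 genes were bound (Myd88, pll, cact, Dif and imd), where 11.3% of all protein-coding genes were. The optimal set gave 5 of 10 (12.1% of all genes), with Tl in place of Dif. Replicate 1's own list gave 2, pll and imd (8.09%), and replicate 2's own list gave 6, namely Tl, Myd88, tub, pll, cact and imd (7.35%). Thus pll and imd were bound in all 4 lists, and spz, dl and Rel in none of them.

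Counting every summit inside a gene or within 5 kb of it, 6 of the 10 genes had a conservative peak, against 34.8% of all protein-coding genes; dl joined the 5 bound genes. The optimal set gave 7 (37.5%), the lists of replicates 1 and 2 gave 4 (26.5%) and 7 (23.8%). The genes spz and Rel had no peak in any of these lists. The gene windows held 14 conservative peaks, or 6.58 per 100 kb against 2.19 per 100 kb of the genome, and cact alone held 6 of them. Ranked peaks, before the threshold, were also denser there, at 137 against 102 per 100 kb. Both genome values are over the full length of the arms, with stretches far from genes included. Windows of other genes were not counted in this way, so these are unlike backgrounds. Long genes and genes with several TSS offer more places for a summit, and 6 of the 10 fell in the longest of 4 equal classes of genes. In that class 48.2% of genes had a summit by the 5 kb rule and 17.5% at a TSS. Of the 6 pathway genes in it, 4 had one by the 5 kb rule and 3 at a TSS. Genes with more than 1 TSS were bound in 20.0% of cases and those with 1 TSS in 8.13%; 4 of the 6 pathway genes of the first kind and 1 of the 4 of the second were bound. The 10 genes were chosen with earlier results of these data known, so these counts are descriptions and no test was made.

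**Figure D1:**
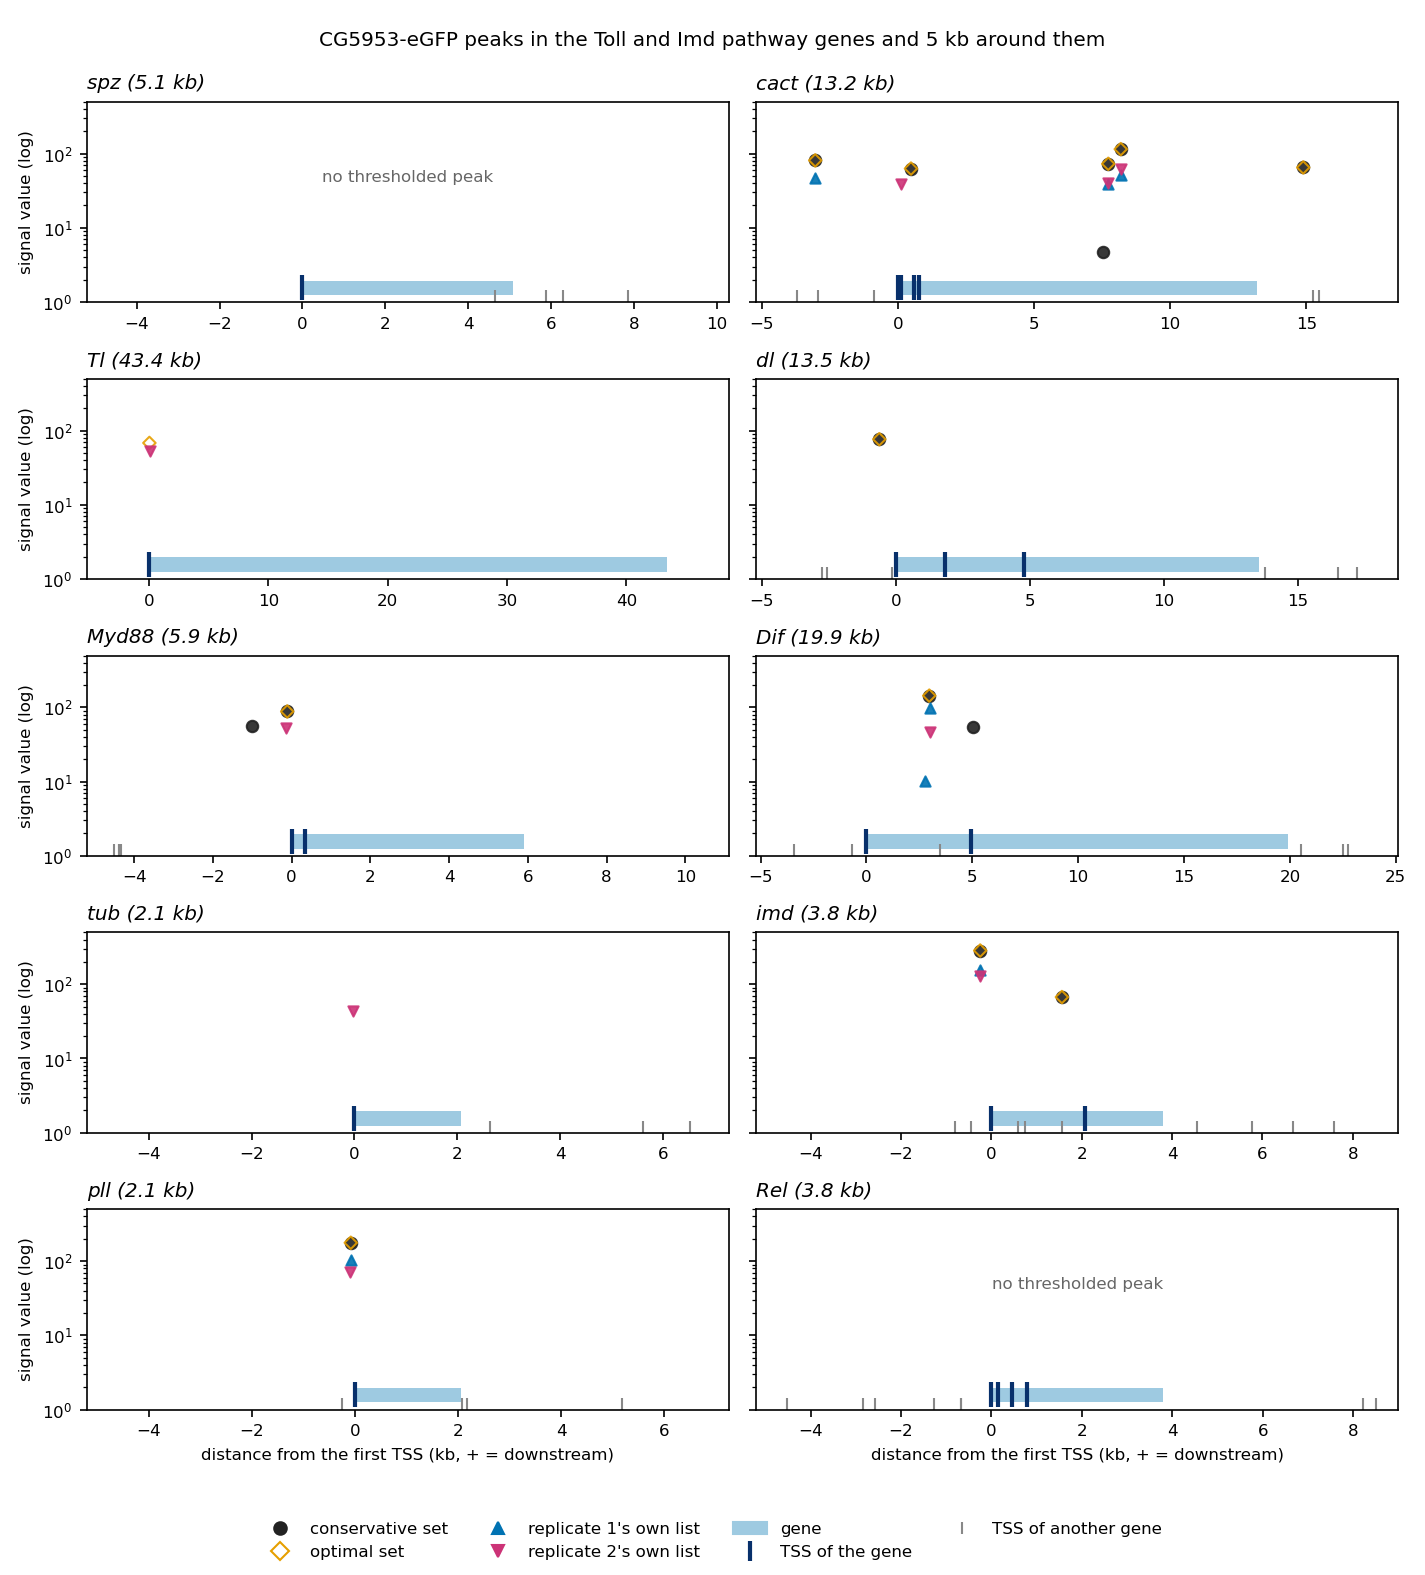
Peaks of the 4 thresholded lists at each gene, by distance of the summit from the gene's first TSS (kb, positive is downstream) and signal (log axis); bars are the genes and ticks are TSS. Peaks sit at the first TSS of pll, imd, Myd88 and Tl, spread along cact, and are missing at spz and Rel.

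The ligand gene spz (FBgn0003495; 3R, 27064990 to 27070070, minus strand) had no peak past the threshold. Its strongest ranked peak had a signal of 43.8, 1186 bp upstream of the TSS. The next, 324 bp upstream, had a signal of 43.4 and a −log10 IDR of 1.18 in the conservative ranked list and 0.89 in the optimal one, both under the limit of 2. At that promoter peak replicate 1 had a signal of 21.9 and replicate 2 of 20.3. The 2 libraries thus gave close values for a weak peak.

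The receptor gene Tl (FBgn0262473; 3R, 26799041 to 26842403, plus strand) had 1 peak, at 26798932 to 26799227, with its summit 39 bp downstream of the TSS in the 5′ UTR. It was in the optimal set (signal 68.0) and in replicate 2's own list, and not in the other lists. Replicate 1 had a signal of 20.7 there and replicate 2 of 52.3, a difference of 2.52-fold and a mean of 36.5 ± 22.3 (SD, n = 2). Replicate 2 was the high library, and the Tl call rests on it. In the ranked lists the same peak had a −log10 IDR of 2.73 for the optimal and 1.71 for the conservative list. The long Tl gene, 43.4 kb, had no other peak past the threshold, and no TSS of another gene lay within 5 kb of it. Its strongest intron peaks had signals of 44.9 and 42.9, at 22280 and 9714 bp downstream of the TSS.

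The adaptor gene Myd88 (FBgn0033402; 2R, 9302823 to 9308722, minus strand) had 2 conservative peaks. The promoter peak (9308686 to 9308981) had a signal of 88.1, rank 1354 of 3015, and its summit lay 112 bp upstream of the first TSS. Replicate 1 had a signal of 30.2 and replicate 2 of 52.7, 1.74-fold apart, with a mean of 41.4 ± 15.9 (SD, n = 2). As at Tl, replicate 2 was higher and the peak was in replicate 2's own list alone. The other peak (9309581 to 9309876, signal 56.8) lay 1007 bp upstream, in an annotated 3′ UTR. The genes CG13739 and CG13954 both span its summit. Its replicates were close, at 31.5 and 28.9, but it was in neither replicate's own list nor in the optimal set, where its −log10 IDR was 1.34.

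The adaptor gene tub (FBgn0003882; 3R, 4387742 to 4389813, plus strand) had a peak in replicate 2's own list alone, at 4387593 to 4387848, 21 bp upstream of the TSS. Its signal there was 43.7 and its −log10 IDR 2.50. No peak of replicate 1's ranked list overlapped it; the strongest one within 500 bp of the TSS had a signal of 22.8, 400 bp downstream. From both libraries together, the optimal ranked list gave 37.3 at 19 bp upstream (−log10 IDR 0.683). A peak at tub was therefore seen in 1 library of 2.

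The kinase gene pll (FBgn0010441; 3R, 27251131 to 27253182, minus strand) had 1 strong peak at 27253114 to 27253409, found in all 4 lists. Its signal was 177, rank 374 of 3015, and its −log10 IDR was 4.17 in the optimal ranked list. Replicate 1 had a signal of 105 and replicate 2 of 72.1, 1.46-fold apart, with a mean of 88.6 ± 23.3 (SD, n = 2). In each replicate this was above the value at the promoter of every other gene of the 10 but imd. The summit lay 80 bp upstream of the pll TSS and 168 bp upstream of a TSS of TfIIA-L on the other strand, which encodes a subunit of the general transcription factor TFIIA. The peak cannot be given to 1 of the 2 genes, though pll is the nearer.

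The inhibitor gene cact (FBgn0000250; 2L, 16313036 to 16326207, minus strand) had the most peaks, 6 in the conservative set. The strongest lay in an intron at 16317876 to 16318171, 8.18 kb downstream of the first TSS, with a signal of 115 and rank 862. Its summit was slightly nearer to a TSS of fzy (7068 bp) than to one of cact (7396 bp). Replicate 1 had a signal of 51.6 and replicate 2 of 61.5, a mean of 56.6 ± 6.99 (SD, n = 2). A second intron peak lay 459 bp away (16318335 to 16318630, signal 72.9), with 38.4 and 40.2 in the replicates. Both intron peaks were in both replicates' own lists, and the replicates differed there by 1.19-fold and 1.04-fold. A small conservative peak of signal 4.70 overlaps the second by 95 bp, so it has no replicate value of its own.

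At the start of cact, which has 4 annotated TSS, both replicates had a ranked peak at the conservative peak, with summits 35 bp apart. Replicate 2's own list held another peak nearby. The conservative peak (16325580 to 16325875, signal 62.9) lay 103 bp upstream of an inner TSS, with signals of 37.7 and 32.0, in neither replicate's own list. The peak in replicate 2's own list was at 16325948 to 16326203, 25 bp downstream of another TSS, with a signal of 39.1. The strongest replicate 1 peak overlapping it had 13.1, a 2.98-fold difference. That peak's summit lay 143 bp away, outside the replicate 2 peak, so the fold does not compare the same place. The remaining 2 peaks lay outside cact and close to TSS of other genes. One was 112 bp from the TSS of mRpL4, a mitochondrial ribosomal protein gene (16329096 to 16329391, signal 81.1, replicates 47.1 and 31.5). The other was 366 bp from the TSS of fzy, which encodes an activator of the anaphase-promoting complex (16311174 to 16311469, signal 65.1, replicates 27.9 and 33.1). Leaving these out, the peaks that are nearest to a TSS of cact or lie within it are those of its intron and its promoter.

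The NF-κB gene dl (FBgn0260632; 2L, 17436830 to 17450364, minus strand) had 1 conservative peak, 614 bp upstream, at 17450830 to 17451125. Its signal was 76.3 (rank 1715), with 41.6 in replicate 1 and 29.0 in replicate 2, 1.43-fold apart. It was in the optimal set and in neither replicate's own list, and its nearest TSS was that of lncRNA:CR46204, 484 bp away. At its own TSS, dl had ranked peaks that missed the threshold, with signals of 48.9 (−log10 IDR 1.83) at 58 bp downstream of the first TSS and 47.1 (1.51) at 136 bp upstream of an inner one.

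The NF-κB gene Dif (FBgn0011274; 2L, 17413248 to 17433161, minus strand) had 2 conservative peaks. The stronger lay 2.97 kb downstream of the first TSS, in an intron at 17430046 to 17430341. Its signal was 144 (rank 558), with 97.7 in replicate 1 and 46.8 in replicate 2, a mean of 72.3 ± 36.0 (SD, n = 2). The difference of 2.09-fold was the widest among the 14 conservative peaks, and the peak was still in both replicates' own lists. The TSS of lncRNA:CR44409 lay 488 bp away. The other peak (17427966 to 17428261, signal 54.3) lay 85 bp downstream of the inner TSS, with 29.1 and 28.9 in the replicates. It was in neither replicate's own list and not in the optimal set, where its −log10 IDR was 1.80.

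The Imd adaptor gene imd (FBgn0013983; 2R, 18409796 to 18413599, minus strand) had the strongest peak of all 10 genes. At 18413697 to 18413992 the signal was 285, rank 148 of 3015, and the −log10 IDR 4.82. Replicate 1 had a signal of 156 and replicate 2 of 128, 1.22-fold apart, with a mean of 142 ± 19.5 (SD, n = 2). The peak was in all 4 lists. Its summit lay between 2 TSS on opposite strands, 246 bp upstream of that of imd and 206 bp upstream of one of Dp1, which encodes an RNA-binding protein with KH domains. The second imd peak (18411889 to 18412184, signal 67.3, replicates 30.2 and 39.5) lay 10 bp from another TSS of Dp1 and 505 bp upstream of the inner TSS of imd. Both peaks thus lay nearer to a TSS of Dp1 than to one of imd.

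The NF-κB gene of the Imd pathway, Rel (FBgn0014018; 3R, 9044183 to 9047977, minus strand), had no peak past the threshold despite its 4 TSS. The strongest ranked peak in its window lay 4337 bp downstream of the nearest Rel TSS, past the end of the gene in a coding exon (9042715 to 9043010), with a signal of 53.1 and a −log10 IDR of 1.10 and 1.53 in the 2 ranked lists of both libraries. Within 500 bp of a Rel TSS the strongest peak from both libraries together had a signal of 38.2, with 27.1 in replicate 1 and 13.2 in replicate 2 at that place. In replicate 2 another peak, 62 bp upstream of a TSS, was the strongest, at 19.9.

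To compare all 10 promoters by 1 rule, the strongest ranked peak within 500 bp of a TSS was taken whether or not it passed the threshold. From both replicates together (optimal ranked list), imd stood at the 99.1 percentile of protein-coding genes, pll at 98.0, Myd88 at 93.7, Tl at 90.7 and cact at 89.3. The others stood at 86.2 (Dif), 83.0 (dl), 77.8 (spz), 71.1 (Rel) and 69.7 (tub). The median of the 10 was 58.6, against a median of 27.1 and an upper quartile of 41.0 over all protein-coding genes. In replicate 1 the median was 28.5 against 13.9, and in replicate 2 it was 41.4 against 15.3. Genes with no such peak entered as 0.

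Within each replicate's list imd came first and pll second, far from the rest. In replicate 1 the next were cact (37.7), Myd88 (30.2), Dif (29.1), dl (28.0), Rel (27.1), tub (22.8), spz (21.9) and Tl (20.7). In replicate 2 they were Myd88 (52.7), Tl (52.3), tub (43.7), cact (39.1), Dif (28.9), dl (24.8), spz (20.3) and Rel (19.9). Dif, dl and spz kept their order relative to each other, whereas Tl was last in replicate 1 and stood at place 4 in replicate 2, and tub moved from place 8 to place 5. The order of Myd88, cact, Tl, tub and Rel thus differed between the libraries. At cact, dl, Rel and tub the replicates' strongest peaks lay at different places. Dif had a mean of 29.0 ± 0.136 and spz of 21.1 ± 1.12 (SD, n = 2).

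**Figure D2:**
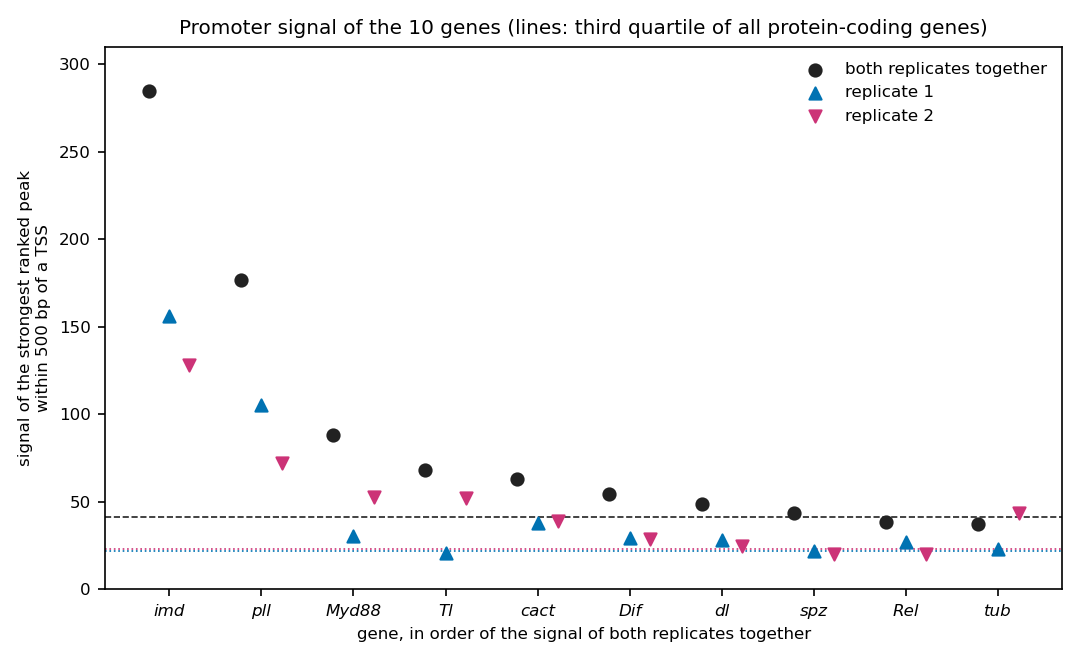
Signal of the strongest ranked peak within 500 bp of a TSS for each of the 10 genes, from both replicates together and from each replicate; lines are the third quartile of all protein-coding genes in the same lists, 41.0, 21.5 and 22.8. The points of imd and pll stand far above these lines, and those of spz and Rel lie close to them.

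The replicates differed at the 14 conservative peaks by 1.01-fold to 2.09-fold, with a median of 1.21-fold, against 1.26-fold for all conservative peaks. Replicate 1 was the higher in 8 of 14 (57.1%), against 59.9% of all. The replicates' summits lay a median of 22.5 bp apart, against 27 bp. The small cact peak has no replicate values of its own and entered these figures with those of its neighbour. Replicate 2 was the higher at that neighbour, so the repeated entry lowers the share of 57.1%. By overlap, 6 of the 14 were in both replicates' own lists, the small cact peak among them through its neighbour. Of the rest, 1 was in replicate 1's list, 1 in replicate 2's and 6 in neither. The median signal of the 14 was 74.6, under the 83.0 of the whole set. The Tl peak, where replicate 2 stood far above replicate 1, and replicate 2's own peak at the start of cact are outside the conservative set.

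**Figure D3:**
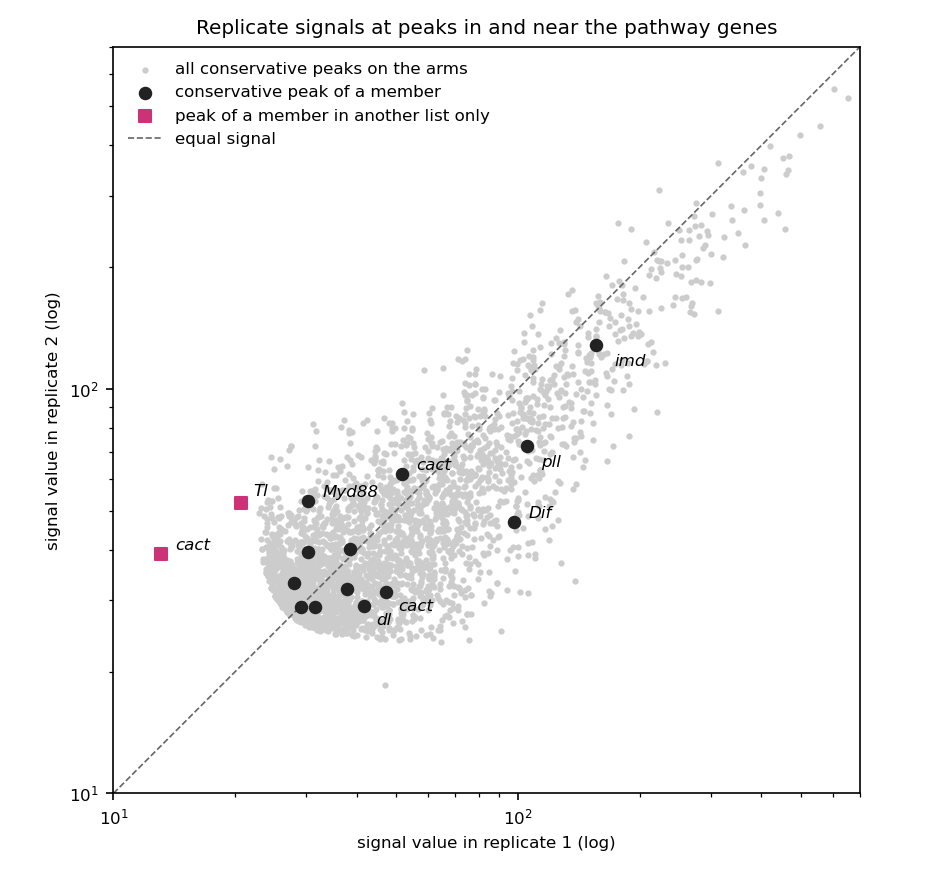
Signal in replicate 2 against replicate 1 (log axes) at the peaks in and near the 10 genes, over all conservative peaks on the chromosome arms; the small cact peak of signal 4.70 and the tub peak, which lack a value of their own in 1 or both replicates, are left out. The strongest imd peak (1.22-fold) lies near the dashed line of equal signal and the pll peak (1.46-fold) below it. The Tl and cact squares lie well above the line, but the cact square pairs peaks with summits 143 bp apart.

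By any gene's TSS, 10 of the 14 summits lay at a promoter, 3 in introns and 1 in a 3′ UTR, against 45.3%, 35.8% and 0.862% of all 3015 conservative peaks. The 14 come from windows drawn around genes and the 3015 do not, so these are unlike backgrounds. Several of the promoter summits were nearest to a TSS of fzy, mRpL4, lncRNA:CR46204, lncRNA:CR44409 or Dp1, not of the pathway gene. Relative to the pathway gene itself, 6 of the 14 lay upstream, 6 in an intron, 1 in the 5′ UTR and 1 downstream. A TSS of another gene stood within 1 kb upstream of the first TSS, on the other strand, at pll (248 bp), imd (452 bp), dl (130 bp), Rel (668 bp), cact (862 bp) and Dif (701 bp). Both strong and weak promoters are among these, and Tl, Myd88, tub and spz had none.

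Other genes of these pathways and their targets, 111 in 6 lists of which 109 were found, were bound in 7 cases in the conservative set (6.42%, against 11.3% of all protein-coding genes). The optimal set gave 14 (12.8%, against 12.1%), replicate 1's own list 7 (6.42%, against 8.09%) and replicate 2's 4 (3.67%, against 7.35%), so the share lay under that of all genes in 3 lists and slightly above it in the optimal set. Of 20 genes for ligand processing and recognition, 1 was bound, Spn27A, a serpin that restrains the protease cascade (signal 38.6). Of 12 Toll family receptor and Spätzle family genes, 1 was bound. It was Toll-7, a relative of the Toll receptor, with a signal of 278 (115 in replicate 1 and 163 in replicate 2), in both replicates' own lists and close to the imd peak in size. Of 13 further intracellular Toll genes, 1 was bound, the signalling adaptor gene Traf6 (92.8; 47.1 and 49.7).

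Of 25 further Imd pathway genes, 2 were bound: POSH, which encodes a scaffold protein with ubiquitin ligase activity (142; 106 and 38.8), and Charon (67.9; 42.7 and 25.2). Both summits lay nearer to a neighbour's TSS, that of Ns2 and of CG4887. Of 21 antimicrobial peptide and immune effector genes, the downstream targets of these pathways in immunity, 0 were bound in the conservative set and in either replicate's own list, and 1 in the optimal set. Of 18 dorsoventral targets of Dorsal, 2 were bound, the mesodermal homeobox gene tin (206; 120 and 90.3) and rho, which encodes an intramembrane protease of EGFR signalling (95.1; 42.4 and 53.7). The optimal set gave 6 of 25 in the Imd list (24%) and 4 of 18 Dorsal targets (22.2%), against 12.1% of all genes. The Toll family receptor and Spätzle family list gave 2 of 12 in that set (16.7%), and the remaining lists gave 0% to 7.69%. That family list gave 16.7% in replicate 1's own list and 8.33% in replicate 2's, against 8.09% and 7.35% of all genes. For the Imd genes, replicate 1's own list gave 3 (12%, against 8.09%) and replicate 2's gave 0 (against 7.35%). Within the genes or 5 kb of them, 40 of the 109 had a conservative summit, against 34.8% of all protein-coding genes by the same rule.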

How the data were processed

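ChIP-seq peak lists of 2 biological replicates on dm6 were analysed, in 4 thresholded and 4 ranked lists. Which aligner and peak caller made them is not given in the sources used here. Per list, the authors gave a signal per peak, of unstated unit, and a summit offset in bp. The deposited score is the IDR on a scale up to 1000. In the ranked lists the authors also gave a −log10 global IDR, which was 2 or more for all thresholded peaks.

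Scripts used Python 3.11.15, numpy 2.4.6, pandas 2.3.3 and matplotlib 3.10.9, and the assignment of summits to TSS was tested on simulated data. Summits were placed on the Ensembl annotation (BDGP6, release 115), whose start and end of all 10 genes matched the RefSeq table; sequences are from the RefSeq Release 6 genome. Replicate values are those of the strongest peak overlapping by at least 1 bp in that replicate's ranked list. Percentiles are over 13968 protein-coding genes. Motifs were searched on both strands in 201 bp around a summit. Read depth is unknown, so precision is given by the SD of the 2 replicates only.

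The 10 genes, the 6 further lists and the motifs were chosen with earlier results of these data known. Genes named are the 10, the genes nearest to their peaks, bound genes of the lists (up to 6 per list by signal) and the strongest ranked peak of genes without a thresholded one. Other ranked peaks, CG13739, CG13954 and genes beside the first TSS were named after their values were seen. Replicates were not pooled beyond the authors' own lists, and no test was made. Alternatives were the other lists, stronger peaks, each replicate's list alone, other windows, the nearest TSS only, any overlap of the peak and, chosen after seeing the data, peaks in both replicates' own lists.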

Additional observations from a re-analysis of the deposited data

How the results depend on the processing

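The count of genes with a conservative peak in the gene or within 5 kb, 6 of 10, fell to 3 when only summits inside the gene counted, and ranged from 4 to 7 with 1 replicate's list alone. The count of bound genes, 5 of 10, was 3 with peaks of at least the median signal and 2 with peaks in both replicates' own lists (added after the data were seen); with 1 replicate's list alone it ranged from 2 (replicate 1) to 6 (replicate 2). The 14 peaks became 5 with at least the median signal, 6 in both own lists, 7 inside the genes, and 7 to 9 with 1 replicate's list. The 7 other pathway genes became 14 with the optimal set, 3 with peaks in both own lists, 12 with a 1000 bp window, and 4 to 7 with 1 replicate's list. The causes of these changes were not tested. The first count was 4 both when a peak counted only for its nearest TSS and with peaks in both own lists. The other alternatives moved the counts by at most 1.5 times. Requiring a 50% overlap left 26 of 28 replicate signals as they were and gave no value for 2, both of the small cact peak. No paired analysis was possible because there is 1 group and no contrast between groups. With 2 libraries of unknown depth, a peak missing from a list is not shown to be absent.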

Other observations

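Several further ranked peaks at these genes did not pass the threshold, some close to it and some less so. Each was named after its value was seen. A peak in the 3′ UTR of Myd88 (9302796 to 9303091) had a signal of 59.7, above that of the conservative Myd88 peak of 56.8. Its −log10 IDR was 1.94 in the conservative ranked list and 1.71 in the optimal one. A further intron peak of cact (16321913 to 16322208) had a signal of 52.0 and a −log10 IDR of 1.97 in the optimal ranked list and 1.06 in the conservative one. In a coding exon of Dif, a peak at 17418493 to 17418788 had a signal of 45.2 (−log10 IDR 1.53 and 1.25). Downstream of tub, a peak of signal 47.0 (−log10 IDR 1.33 and 1.61) lay in a coding exon 3682 bp from the tub TSS. Its nearest gene by TSS was CG14646. The threshold thus does not follow the signal alone.

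At the Dif intron peak, replicate 1's own list also held a second, overlapping peak (17430234 to 17430523) with a signal of 10.1.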
